A study of Mus musculus with 7 samples.

Results

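The genes described here encode the machinery that stores transmitter in synaptic vesicles, fuses the vesicles with the presynaptic membrane and retrieves them. They were 46 genes chosen by name: 3 synapsins, 6 physins, gyrins and a SCAMP, 3 SV2 proteins, 12 synaptotagmins, 4 SNARE proteins, 4 SNARE regulators, 3 proteins that take SNARE complexes apart, 4 genes for Rab3 and its effector, 5 endocytic genes and 2 CAPS genes. All 46 were found among the 46333 genes of the count tables, and all 46 passed the filter on low counts. From general knowledge of these genes, and not from a file or a measurement, 35 members were classed as restricted to neurons and 11 as also expressed in many other cells.

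RNA was sequenced from neurons of whole brains of adult female mice, in 3 cre+ and 4 cre- libraries that the study describes as single littermates. Cre+ mice (SynCre + IL-4R fl/fl) carried Cre recombinase under a synapsin 1 promoter, which removes exons of both floxed copies of il4ra, the gene for the alpha chain of the interleukin-4 receptor, in neurons. Cre- mice (SynCre - IL-4R fl/fl) had the same floxed alleles and no Cre, so no library came from Cre without a floxed allele. Neurons were enriched by magnetic removal of microglia, oligodendrocytes and astrocytes, a step that does not target endothelial cells. The study assessed purity by flow cytometry, with an endothelial antibody among those used, and reports a high neuronal purity.

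Library totals were between 68213223 and 94376841 counts. Il4ra was at 29.5, 28.7 and 24.4 CPM (counts scaled to a common library size) in cre+ libraries, against 20.03, 23.2, 29.6 and 22.4 CPM in cre- libraries, and a count over the whole gene checks the deletion of a few exons poorly. The label of neurons was checked with 30 non-synaptic neuronal markers, and all were detected in every library, at no less than 13.8 CPM. Their summed level was 3574 to 7193 CPM in cre+ libraries and 7068 to 9831 CPM in cre- libraries. The 20 endothelial markers were present as well, summing to 18718 to 26752 CPM in cre+ libraries and 12415 to 17284 CPM in cre- libraries, and all 20 had a positive log2 fold change. In every library the endothelial sum was above the neuronal one, though sums over different markers do not give shares of cells. Summed levels of the other lists in cre+ against cre- libraries were 647 to 913 against 427 to 604 CPM for 13 mural markers, 490 to 885 against 318 to 427 CPM for 10 fibroblast markers and 1627 to 1826 against 937 to 1268 CPM for 12 astrocyte markers. The same sums were 1036 to 2418 against 896 to 1684 CPM for 12 oligodendrocyte markers and 909 to 1398 against 225 to 2090 CPM for 12 microglial markers. Positive log2 fold changes were found for 12 of the 13 mural markers and for all markers of the other 4 lists, and Tagln, a mural marker, was the only marker at 0 in any library (cre+ replicates 1 and 2, cre- replicates 3 and 4). What part these cells have in the results below was not tested. The column headers carry codes that are not shared between genotypes, so a batch they might mark and the genotype cannot be told apart.

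Synaptic vesicles are held in clusters by synapsins, docked with the help of Rab3 proteins and primed by proteins such as CAPS. Fusion is driven by the SNARE proteins syntaxin, SNAP-25 and synaptobrevin, with synaptotagmins as calcium sensors and complexins as clamps and helpers. NSF and SNAP adaptors then take the SNARE complexes apart, and dynamin, endophilin and synaptojanin retrieve the membrane. Many of these proteins have a close relative outside neurons that serves general membrane traffic, so a list of this kind holds both neuronal genes and genes that most cells use.

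Nearly all members stood lower in cre+ libraries, and Sypl stood higher. A negative log2 fold change (cre+ minus cre-) was found for 44 of 46 members, against 54% of all tested genes, the exceptions being Sypl and Syt9, but for 23 of 46 when counts were scaled to neuronal markers, as described below. The median over the members was -0.64, with quartiles of -0.79 and -0.44, against -0.04 over all tested genes. In the quasi-likelihood test of edgeR over 21542 genes, however, 0 members passed an adjusted p of 0.05, as did 0% of all genes in either direction, and the lowest adjusted p of a member was 0.102, for Sypl. At an unadjusted p under 0.05, edgeR gave 22 members lower (47.8%), against a background of 9.75% of all tested genes, and 1 higher (2.17%), against 10.2%. With limma-voom the count past an adjusted p of 0.05 was also 0.

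DESeq2, the test that the study used, called 9 members. Of the 46, 8 were lower (17.4%), where 5.48% of all genes with an adjusted p were called lower, and 1 was higher (2.17%), where the background was 6.7%. The 8 lower were Syn1, Snap25, Stx1a, Syt7, Syt12, Dnm1, Sh3gl2 and Cadps, and Sypl was the higher. These calls depended on single libraries. Leaving out cre+ replicate 1 gave 0 called members, and leaving out cre+ replicate 2 gave 2. Leaving out cre- replicate 1 gave 3, and leaving out cre- replicate 2 or 3 gave 1 each. The count was 22, in contrast, when cre+ replicate 3 was left out, and 21 when cre- replicate 4 was. Calls over all genes also moved, between 348 and 1318 lower and between 407 and 1163 higher in these runs, against 895 and 1095 with all libraries. Sh3gl2 was among the calls in 6 of these 7 runs, all except that without cre+ replicate 1.

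The members moved together from library to library. Their mean log2 CPM, set against the mean of the cre- libraries, was -1.16, -0.47 and -0.26 in cre+ replicates 1 to 3, against 0.45, -0.02, -0.03 and -0.40 in cre- replicates 1 to 4. Cre+ replicate 1 was the lowest of the 7 libraries for 35 members (76.1%, against 25.7% of all tested genes), and cre- replicate 1 was the highest for 38 (82.6%, against 17.2%). Cre- replicate 4 was the lowest cre- library for 39 members (84.8%, against 25% of all genes), and it lay below cre+ replicate 3 for 34 of the 46 (73.9%, against 50.5%). The range within the cre- libraries was wider than the difference between genotype means for 39 members, or 84.8%, against 79% of all genes. Libraries of the genotypes did not overlap for 8 members that were lower, where the background was 9.72% of tested genes, and for 1 that was higher, where it was 8.94%. The 8 lower were Syn3, Sv2b, Syt7, Snap25, Stx1a, Vamp1, Stxbp5 and Sh3gl2.

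**Figure D1:**
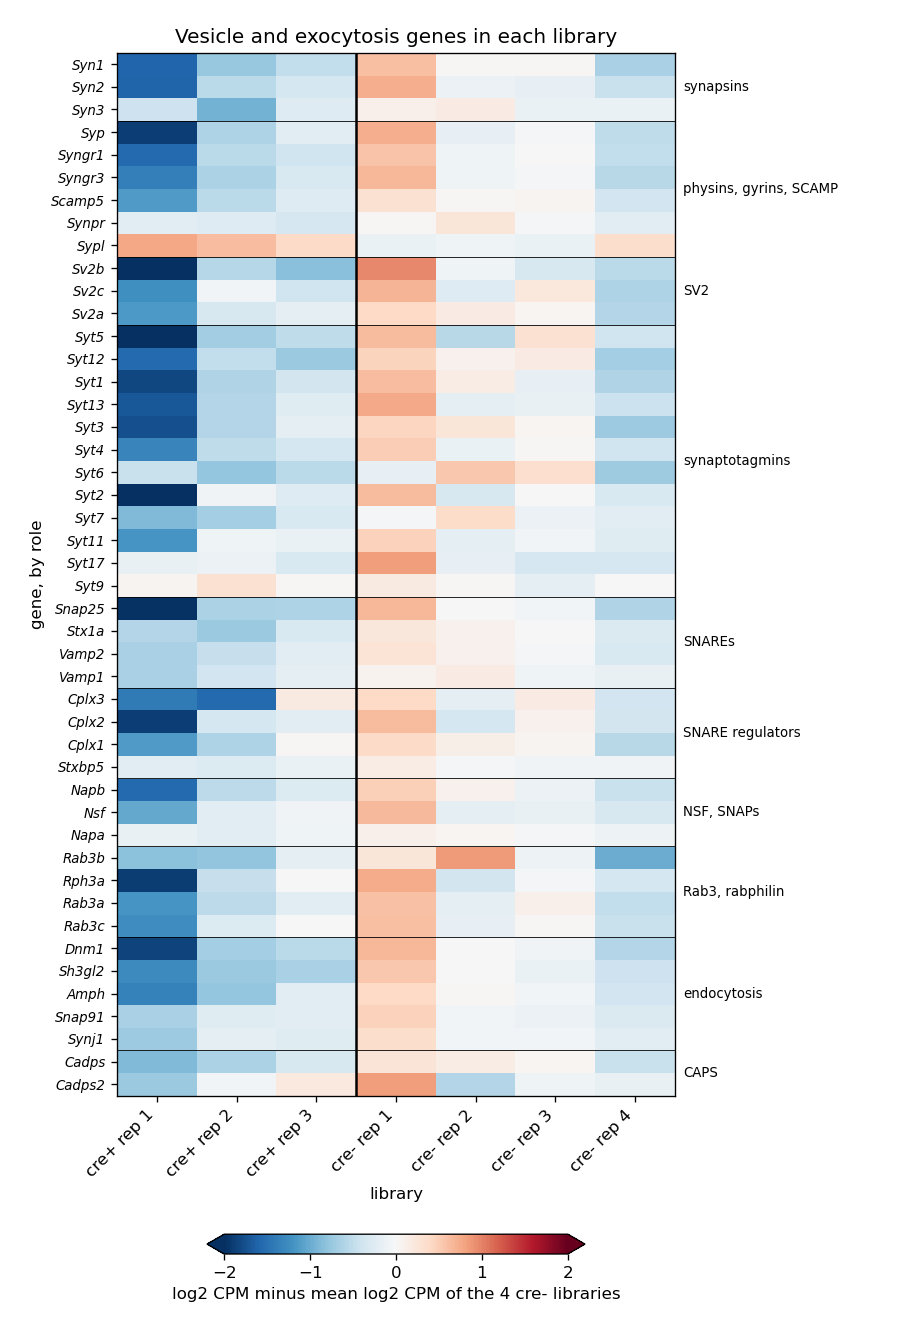
Level of each of the 46 members (rows, by role) in each library (columns, cre+ left of cre-), as log2 CPM minus the mean of the 4 cre- libraries, blue for lower and red for higher. The column of cre+ replicate 1 is the bluest and that of cre- replicate 1 the reddest, cre- replicate 4 is pale blue like cre+ replicate 3, and Sypl is the member that runs against the rest.

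The non-synaptic neuronal markers, a list that holds cytoskeletal and RNA-binding genes such as Map2 and Rbfox3, followed nearly the same order of libraries. Their mean was at -1.20, -0.51 and -0.27 in cre+ replicates 1 to 3 on the same relative log2 scale, against 0.30, -0.03, 0.07 and -0.34 in cre- replicates 1 to 4. Of these 30 markers, 29 had a negative log2 fold change, with a median of -0.61. DESeq2 called 10 of the 30 lower, against 8 of the 46 members and 5.48% of all genes with an adjusted p. The members' mean minus that of these markers was 0.04, 0.0489 and 0.0098 in cre+ libraries and 0.144, 0.014, -0.0995 and -0.0584 in cre- libraries, so the genotypes overlapped on this measure. Endothelial markers ran the other way, at 0.99, 0.45 and 0.49 in cre+ libraries, against -0.12, -0.14, -0.10 and 0.36 in cre- libraries, and their highest cre- library was replicate 4. In bulk RNA, fewer neurons in a library and less of these RNAs per neuron cannot be told apart.

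Counts were also scaled so that the mean of the 30 neuronal markers was level across libraries, which moved the median log2 fold change of all tested genes to 0.64. On this scale 23 of 46 members had a negative log2 fold change, their median was 0.0016, and no member was without overlap between genotypes. Sypl alone among them passed the edgeR threshold, with a log2 fold change of 1.28 ± 0.35 (SE) and an adjusted p of 0.0309. Over all genes, edgeR then called 45 lower and 2965 higher, so a call for a higher level was common on this scale. With the vascular markers (endothelial and mural) entered as a covariate, 41 members had a negative log2 fold change, with a median of -0.47. In this setting edgeR called 0 members, and its lowest adjusted p over all genes was 0.875. DESeq2 called 1 member, Syn3. Calls by DESeq2 over all genes were also few, 59 lower and 35 higher, against 895 and 1095 without the covariate.

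**Figure D2:**
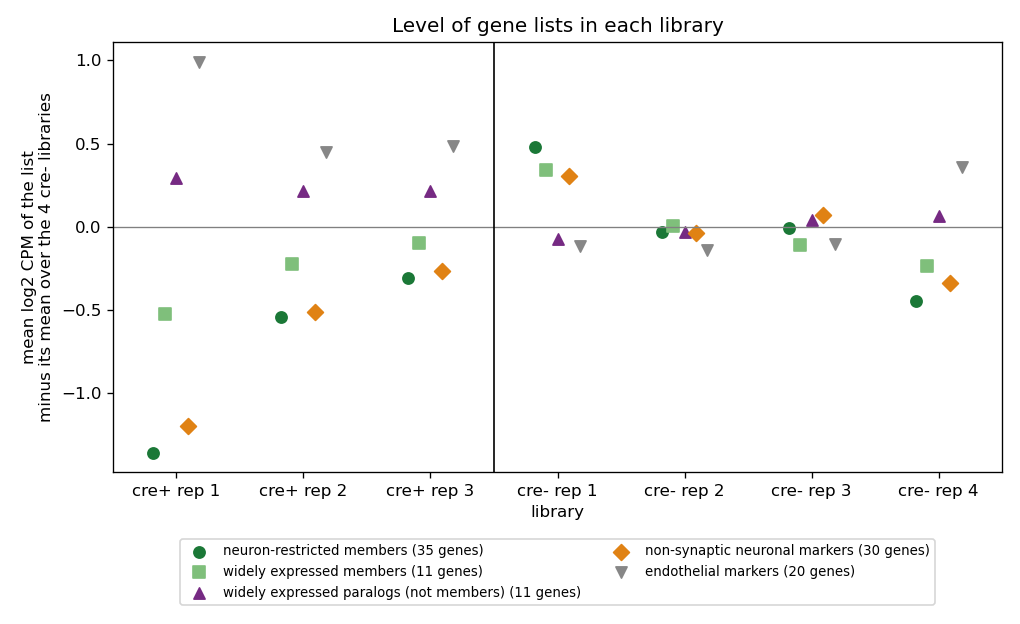
Mean log2 CPM of 5 gene lists in each library, minus the mean of that list over the 4 cre- libraries (vertical axis, log2 units), with cre+ libraries left of cre- libraries. Neuron-restricted members and non-synaptic neuronal markers lie close together in every library, and in the 3 cre+ libraries endothelial markers and widely expressed paralogs lie above 0, with widely expressed members between them and the neuron-restricted ones.

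**Figure D3:**
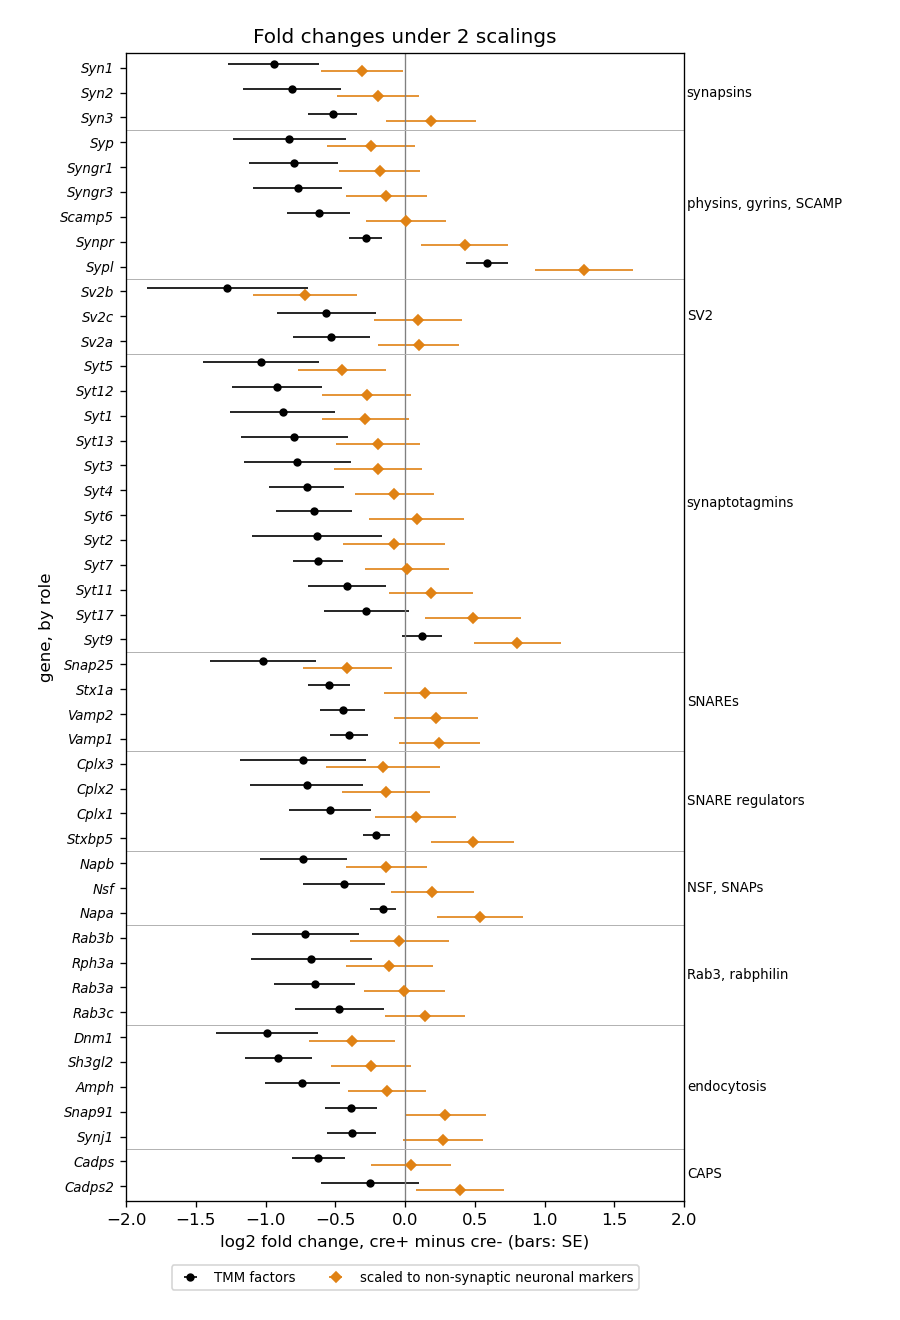
Log2 fold change (cre+ minus cre-) of each member with its SE, with TMM factors (black circles) and with counts scaled to the 30 non-synaptic neuronal markers (orange diamonds). With TMM factors 44 of 46 members lie below 0, while on the neuronal scale 23 do and Sypl lies farthest to the right.

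Upstream sequence is shown for Syn1, a synapsin called lower by DESeq2, Sh3gl2, with the lowest adjusted p of the lower members, and the paralogs Syp and Sypl. RefSeq promoter windows (GRCm38.p6) were matched for 36 of the 46 members, 50 windows in all, and the 250 bases before each start were searched on both strands. The cAMP response element TGACGTCA was in 2 of 50 member windows, those of Syn1 and Sh3gl2, against 1.55% of all 32851 windows. Both are printed here, so the sequences shown hold this element more often than the member windows do. The left part of the RE1 element, TTCAGCACC, which is bound by the neuronal repressor REST, was in 1 (Syn1), against 0.301% of all windows. The GC box GGGCGG was in 30 of 50 member windows (60%), against 32.7% of all windows, and member windows had a median of 62.2% G and C, against 52.4%. TATAAA was in 3 member windows (6%), against 12.4%, and CCAAT in 12 (24%), against 33.8%. Capitals mark every match to the first 3 of these motifs, and in Sh3gl2 a GC box on the other strand lies directly before the cAMP response element. These are matches of letters and not measured binding. Sequences are written in the direction of transcription, for Syn1 at chrX:20920919-20921168 (minus strand), Sh3gl2 at chr4:85205206-85205455 (plus strand), Syp at chrX:7638330-7638579 (plus strand) and Sypl, the first of its 2 windows, at chr12:32953695-32953944 (plus strand).
Syn1: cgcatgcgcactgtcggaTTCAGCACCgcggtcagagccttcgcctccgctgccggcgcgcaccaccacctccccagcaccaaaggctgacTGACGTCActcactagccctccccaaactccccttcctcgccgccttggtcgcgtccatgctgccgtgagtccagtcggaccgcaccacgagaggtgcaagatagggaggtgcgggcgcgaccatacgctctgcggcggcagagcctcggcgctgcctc
Sh3gl2: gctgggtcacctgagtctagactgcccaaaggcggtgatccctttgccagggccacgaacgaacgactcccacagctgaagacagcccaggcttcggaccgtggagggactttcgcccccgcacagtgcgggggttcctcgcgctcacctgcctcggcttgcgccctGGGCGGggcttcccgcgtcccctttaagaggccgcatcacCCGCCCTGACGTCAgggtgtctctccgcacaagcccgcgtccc
Syp: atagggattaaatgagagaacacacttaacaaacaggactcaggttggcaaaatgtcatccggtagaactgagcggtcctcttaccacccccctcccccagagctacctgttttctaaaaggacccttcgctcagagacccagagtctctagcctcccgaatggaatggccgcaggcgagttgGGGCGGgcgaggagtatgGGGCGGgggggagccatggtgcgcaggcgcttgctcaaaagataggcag
Sypl: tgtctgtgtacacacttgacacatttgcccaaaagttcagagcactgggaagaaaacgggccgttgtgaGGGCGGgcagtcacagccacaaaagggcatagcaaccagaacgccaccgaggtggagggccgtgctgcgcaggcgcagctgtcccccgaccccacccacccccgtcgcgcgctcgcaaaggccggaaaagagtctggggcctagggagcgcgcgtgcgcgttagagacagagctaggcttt

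Levels between genes were compared per length, as CPM per kilobase of exon (RPKM). Vamp2, the vesicle SNARE synaptobrevin 2, was the highest member, at a mean of 56.2 RPKM in cre+ libraries and 76.6 RPKM in cre- libraries. By the mean of the cre- libraries Syp followed, at 32.0 RPKM in cre+ and 56.8 RPKM in cre- libraries, then Cplx2 at 33.9 RPKM in cre+ and 55.3 RPKM in cre-, Rab3a at 32.0 RPKM in cre+ and 50.1 RPKM in cre-, and Snap25 at 24.4 RPKM in cre+ and 49.3 RPKM in cre-. The lowest members on this per-length scale were Syt2, at 0.689 RPKM in cre+ and 1.07 RPKM in cre- libraries, and Syn3, at 0.952 RPKM in cre+ and 1.37 RPKM in cre- libraries. Sypl was at 16.98 RPKM in cre+ libraries and 11.3 RPKM in cre- libraries, so the mean level of Syp was above that of Sypl in both genotypes.

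All 3 synapsins, phosphoproteins that tether vesicles to each other and to actin, stood lower in cre+ libraries with TMM factors, while Syn3 had a log2 fold change of 0.18 on the scale of the neuronal markers. Syn1 (chromosome X, 20726750 to 20787243, minus strand, GRCm39) was at 45.5, 80.6 and 97.5 CPM in cre+ replicates 1 to 3, against 207, 139, 139 and 87.1 CPM in cre- replicates 1 to 4. Cre- replicate 4 lay between cre+ replicates 2 and 3, so the genotypes overlapped. Its log2 fold change was -0.94 ± 0.33 (SE), and the adjusted p was 0.175 by edgeR and 0.035 by DESeq2. Syn2 had a log2 fold change of -0.81 and Syn3 of -0.52. For Syn3 the genotypes did not overlap, at 15.01 to 24.2 CPM in cre+ libraries and 26.4 to 32.7 CPM in cre- libraries, and neither was called by edgeR or DESeq2.

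Among the tetraspan proteins of the vesicle membrane, Sypl, synaptophysin-like protein, had the highest log2 fold change of all members. The gene (chromosome 12, 33003890 to 33029859, plus strand, GRCm39) is a widely expressed relative of synaptophysin that is found on transport vesicles of many cells. It was at 179.5, 162 and 137 CPM in cre+ libraries, against 95.6, 99.2, 95.2 and 134 CPM in cre- libraries. All cre+ libraries lay above all cre- libraries, with cre+ replicate 3 and cre- replicate 4 a few CPM apart. Its log2 fold change was 0.59 ± 0.15 (SE), and the adjusted p was 0.102 by edgeR and 0.0153 by DESeq2. Syp, synaptophysin itself, was at 88.7, 214 and 279 CPM in cre+ libraries and 538, 291, 317 and 229.5 CPM in cre- libraries, with a log2 fold change of -0.83 ± 0.41 and no call.

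Syngr1, the neuronal synaptogyrin, was at 47.4, 95.95 and 107 CPM in cre+ libraries, against 207, 132, 141 and 98.8 CPM in cre- libraries. Syngr3, a synaptogyrin that binds the dopamine transporter, was at 23.2, 38.5 and 48.7 CPM in cre+ libraries, against 95.1, 56.7, 58.3 and 40.96 CPM in cre- libraries. Scamp5, a secretory carrier protein of neurons, was at 73.8, 112 and 137 CPM in cre+ libraries, against 202, 164, 169.8 and 124 CPM in cre- libraries. In each of these 3 genes cre+ replicate 1 was the lowest library and cre- replicate 4 lay within the range of cre+. Their log2 fold changes were -0.80, -0.77 and -0.62, at an unadjusted p under 0.05 in edgeR and adjusted p from 0.0697 to 0.0936 in DESeq2. Synpr, synaptoporin, had a log2 fold change of -0.28. On the scale of the neuronal markers Scamp5 (0.0079) and Synpr (0.43) were positive.

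The SV2 proteins are vesicle glycoproteins of the transporter fold, and SV2A binds the antiepileptic drug levetiracetam. Sv2b had the lowest log2 fold change of all members, at -1.28 ± 0.58 (SE). It was at 7.73, 43.5 and 36.4 CPM in cre+ libraries, against 126, 60.9, 51.9 and 44.5 CPM in cre- libraries. The genotypes did not overlap, but the value in cre+ replicate 1 was far below the other cre+ libraries. Neither test called the gene, and the adjusted p was 0.263 by edgeR and 0.205 by DESeq2. Without cre+ replicate 1 its log2 fold change was -0.83. Sv2a and Sv2c had log2 fold changes of -0.53 and -0.56, which were 0.098 and 0.091 on the scale of the neuronal markers.

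Of 12 synaptotagmins, 11 had a negative log2 fold change, of which Syt6, Syt7, Syt11 and Syt17 were positive on the scale of the neuronal markers. DESeq2 called 2 of the 12 lower, where the background was 5.48% of genes. Syt7, a high-affinity calcium sensor of slow and facilitated release that is also expressed outside neurons, was at 72.4, 83.3 and 108 CPM in cre+ libraries, against 132, 172, 123 and 114 CPM in cre- libraries, with no overlap. Its log2 fold change was -0.62 ± 0.18 (SE), and the adjusted p was 0.123 by edgeR and 0.0254 by DESeq2. Syt12, a synaptotagmin that does not bind calcium, was at 4.82, 10.02 and 8.42 CPM in cre+ libraries and 19.1, 14.9, 15.8 and 8.77 CPM in cre- libraries. Cre- replicate 4 lay below cre+ replicate 2. The log2 fold change of Syt12 was -0.92 ± 0.32 (SE), and the adjusted p was 0.176 by edgeR and 0.0484 by DESeq2.

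The other synaptotagmins were not called by either test. Syt5 (-1.03), Syt1 (-0.88), the fast calcium sensor of forebrain synapses, Syt13 (-0.80), Syt3 (-0.77), Syt4 (-0.70), Syt6 (-0.65), Syt2 (-0.63), Syt11 (-0.42) and Syt17 (-0.28) had negative log2 fold changes. Syt9 had one of 0.12 ± 0.14 (SE), at 16.04 to 19.6 CPM in cre+ libraries and 13.9 to 17.96 CPM in cre- libraries. Syt9 was thus the single neuron-restricted member above 0.

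All 4 SNARE genes had negative log2 fold changes with an unadjusted p under 0.05 in edgeR, where 9.75% of all tested genes were lower. On the scale of the neuronal markers, however, Stx1a, Vamp1 and Vamp2 were positive. DESeq2 called 2 of the 4 lower, where the background was 5.48% of genes. Snap25, the neuronal plasma membrane SNARE cut by several botulinum toxins, was at 119, 304 and 308 CPM in cre+ libraries, against 741, 470.0, 451 and 311 CPM in cre- libraries. The genotypes did not overlap, although cre+ replicate 3 and cre- replicate 4 were nearly equal. The log2 fold change was -1.02 ± 0.38 (SE), and the adjusted p was 0.197 by edgeR and 0.042 by DESeq2. Stx1a, syntaxin 1A of the same membrane, was at 52.3, 47.1 and 63.5 CPM in cre+ libraries, against 92.1, 83.1, 78.1 and 64.1 CPM in cre- libraries. Again no libraries overlapped and the gap between the nearest was small, with a log2 fold change of -0.55 ± 0.15 and an adjusted p of 0.114 in edgeR and 0.0246 in DESeq2.

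The vesicle SNARE Vamp2 was at 188, 214 and 255 CPM in cre+ libraries, against 356, 314, 286 and 238 CPM in cre- libraries. Cre- replicate 4 lay below cre+ replicate 3, and the log2 fold change was -0.45 ± 0.16 (SE). Vamp1, its relative in brainstem and spinal cord, had a log2 fold change of -0.40 with no overlap, at 26.1 to 35.97 CPM in cre+ libraries and 36.98 to 45.8 CPM in cre- libraries.

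No SNARE regulator, disassembly factor, Rab3 gene or Rab3 effector was called by edgeR or DESeq2. Complexins Cplx1, Cplx2 and Cplx3, which bind the assembled SNARE complex, had log2 fold changes of -0.54, -0.71 and -0.73. Stxbp5, tomosyn, an inhibitor of SNARE assembly, had one of -0.21, without overlap, at 47.8 to 53.04 CPM in cre+ libraries and 55.4 to 64.4 CPM in cre- libraries. The ATPase gene Nsf had a log2 fold change of -0.44, its general adaptor Napa one of -0.16 and its neuronal adaptor Napb one of -0.73. Rab3a, Rab3b, Rab3c and the effector Rph3a, rabphilin, had log2 fold changes of -0.65, -0.71, -0.47 and -0.67. Cplx1 (0.077), Stxbp5 (0.48), Nsf (0.20), Napa (0.54) and Rab3c (0.14) were positive on the scale of the neuronal markers.

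In the endocytic group all 5 genes had negative log2 fold changes, Snap91 and Synj1 being positive on the scale of the neuronal markers. DESeq2 called 2 of the 5 lower, where the background was 5.48% of genes. Dnm1, the neuronal dynamin that pinches off endocytic vesicles, was at 93.1, 208 and 229 CPM in cre+ libraries, against 529, 335, 318 and 223 CPM in cre- libraries. Cre- replicate 4 lay below cre+ replicate 3. For Dnm1 the log2 fold change was -0.99 ± 0.36 (SE), and the adjusted p was 0.191 by edgeR and 0.0407 by DESeq2. Sh3gl2, endophilin A1, which bends membrane and recruits dynamin and synaptojanin, was at 27.2, 38.96 and 41.6 CPM in cre+ libraries, against 95.01, 65.6, 59.7 and 49.1 CPM in cre- libraries. No libraries overlapped, and its log2 fold change of -0.91 ± 0.24 had the lowest adjusted p of the lower members, 0.107 in edgeR and 0.00899 in DESeq2.

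Snap91, the neuronal clathrin assembly protein AP180, was at 78.4, 104 and 105 CPM in cre+ libraries, against 168, 119, 113 and 100.05 CPM in cre- libraries, with a log2 fold change of -0.39. Amph, amphiphysin, had a log2 fold change of -0.74 and Synj1, synaptojanin 1, one of -0.38. CAPS proteins prime dense-core and synaptic vesicles. Cadps, CAPS1, was at 56.04, 66.7 and 82.5 CPM in cre+ libraries, against 124, 114, 106 and 75.8 CPM in cre- libraries, so cre- replicate 4 lay below cre+ replicate 3. Its log2 fold change was -0.62 ± 0.19 (SE), and the adjusted p was 0.139 by edgeR and 0.0355 by DESeq2, while Cadps2 had a log2 fold change of -0.25. Scaled to the neuronal markers, both were positive, at 0.043 for Cadps and 0.39 for Cadps2.

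**Figure D4:**
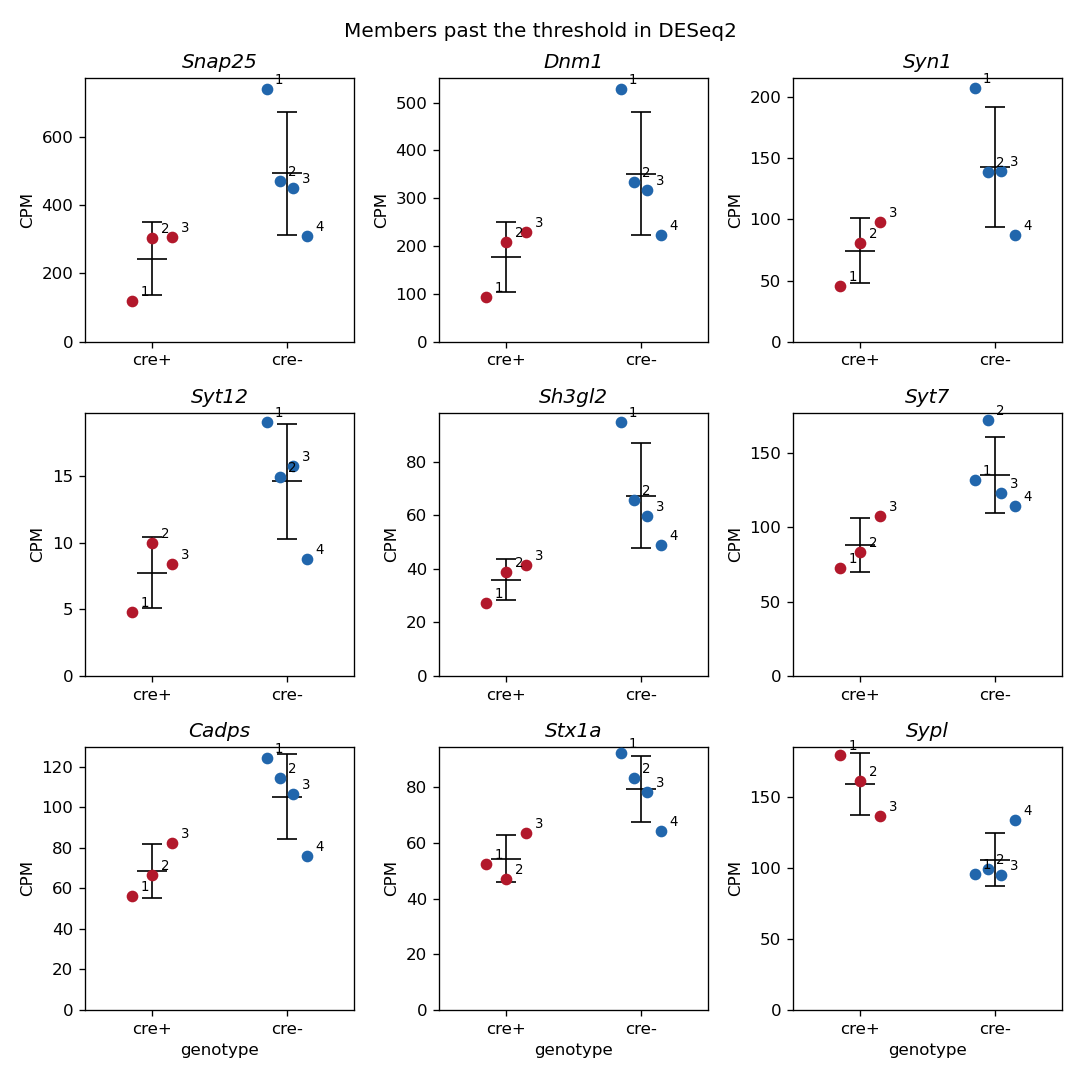
CPM of the 9 members called by DESeq2 (a panel each, vertical axis from 0), with cre+ left of cre-, a point per library marked with its replicate number, and a bar for the mean with its SD. In 8 panels cre+ replicate 1 or 2 is the lowest point and cre- replicate 4 comes close to or enters the cre+ range, and in the panel of Sypl cre+ is higher.

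Widely expressed members stood closer to 0 than neuron-restricted ones. The median log2 fold change was -0.71 over 35 neuron-restricted members, of which DESeq2 called 7 lower, and -0.38 over 11 widely expressed members, of which it called 1 lower and 1 higher, against a background of 5.48% lower and 6.7% higher. For 11 widely expressed paralogs outside the list, such as Vamp3, Snap23 and Dnm2, the median was 0.27. Set against the neuronal markers in each library, the mean of the 11 widely expressed members was 0.673, 0.288 and 0.169 in cre+ libraries, against 0.0375, 0.0385, -0.176 and 0.0996 in cre- libraries, without overlap. The same measure for the neuron-restricted members overlapped, at -0.159, -0.0263 and -0.0402 in cre+ libraries and 0.177, 0.00629, -0.0756 and -0.108 in cre- libraries. Before this subtraction the 11 widely expressed members overlapped too, at -0.52, -0.23 and -0.099 in cre+ libraries, against 0.34, 0.0038, -0.11 and -0.24 in cre- libraries. The neuronal markers averaged lower in cre+ libraries, so a list that follows them less rises there on this measure. No value over all genes was computed for it.

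The balance of paralogs within a library does not depend on how libraries are scaled. For 15 pairs of a synaptic member and a more widely expressed relative, in which Vamp2 and Synj1 on the synaptic side were themselves classed as widely expressed, the log2 ratio averaged lower in cre+ libraries in all 15, and in 7 pairs the genotypes did not overlap. The pairs share their libraries, and Syngr2 serves in 2 of them, so the 15 are not independent of each other. Ratios of other neuronal genes to other widely expressed genes were not computed, so the counts of 15 and 7 have no background beside them. In exact two-sided permutation tests over the 35 splits of 7 libraries, 2 pairs reached the smallest p the design allows, 0.0286, and the lowest p adjusted over the 15 pairs was 0.117. No pair thus passed the adjustment, and over 15 pairs a single pair at the smallest p could not have passed it.

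The pair with the largest difference was Syngr1 over Syngr2, a synaptogyrin of most other tissues. Its log2 ratio was -0.53, 0.77 and 0.90 in cre+ libraries, against 2.54, 2.22, 1.57 and 1.26 in cre- libraries, a difference of -1.52 (exact p = 0.0286). All cre+ libraries lay below all cre- libraries. The difference for Syngr3 over Syngr2, which shares Syngr2 with it, was -1.46 (exact p = 0.0571). Scamp5 over Scamp2 was at 0.77, 1.13 and 1.40 in cre+ libraries, against 2.33, 1.91, 1.69 and 1.62 in cre- libraries, a difference of -0.79 (exact p = 0.0286).

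Vamp2 over Vamp3, cellubrevin of recycling endosomes, had log2 ratios of 0.55, 0.87 and 1.10 in cre+ libraries, against 2.38, 2.18, 1.96 and 1.34 in cre- libraries. The difference was -1.12 (exact p = 0.0571), without overlap. Dnm1 over Dnm2, the dynamin of all cells, was at -1.85, -0.18 and -0.22 in cre+ libraries, against 1.38, 0.44, 0.43 and -0.13 in cre- libraries, a difference of -1.28 (exact p = 0.0571). For Sh3gl2 over Sh3gl1 the difference was -0.96, and for Snap91 over Picalm, the clathrin assembly protein of most cells, it was -0.75, both without overlap and with an exact p of 0.0571.

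Pairs whose libraries overlapped had differences between -1.50 for Syp over Sypl and -0.16 for Synj1 over Synj2. Syp over Sypl was at -1.02, 0.41 and 1.03 in cre+ libraries, against 2.49, 1.56, 1.74 and 0.78 in cre- libraries (exact p = 0.0857), so the overlap came from cre+ replicate 3 and cre- replicate 4. The difference was -1.45 for Snap25 over Snap23, -1.06 for Rab3a over Rab3d, -0.68 for Stx1a over Stx4 (listed as Stx4a), -0.63 for Napb over Napa, -0.50 for Amph over Bin1 and -0.41 for Cadps over Cadps2. Without cre+ replicate 3 or without cre- replicate 4, 13 pairs did not overlap, though a gap is easier to reach with fewer libraries.

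**Figure D5:**
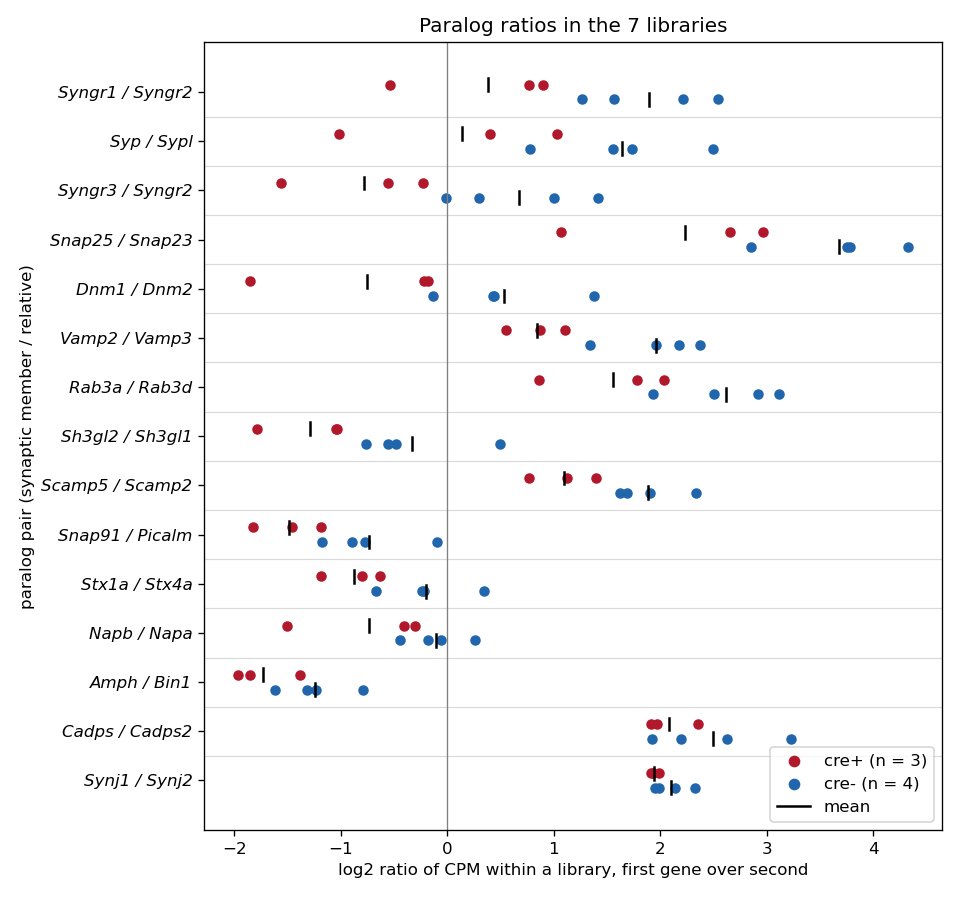
Log2 ratio of CPM within each library (horizontal axis) for 15 pairs of a synaptic member over a more widely expressed relative, with cre+ libraries in red above cre- libraries in blue and a black line at each mean. The cre+ mean lies left of the cre- mean in all 15 pairs, with differences from -1.52 for Syngr1 over Syngr2 to -0.16 for Synj1 over Synj2.

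Several of the widely expressed partners stood higher in cre+ libraries. Vamp3 was at 128, 117 and 119 CPM in cre+ libraries, against 68.6, 69.4, 73.5 and 93.98 CPM in cre- libraries. It had a log2 fold change of 0.67 ± 0.13 (SE), and the adjusted p was 0.0939 by edgeR and 0.000815 by DESeq2. Syngr2 was at 68.6, 56.5 and 57.01 CPM in cre+ libraries, against 35.6, 28.4, 47.5 and 41.2 CPM in cre- libraries, with a log2 fold change of 0.67 ± 0.17 and an adjusted p of 0.103 in edgeR and 0.0126 in DESeq2. Picalm was called higher by DESeq2 as well, with a log2 fold change of 0.38 and an adjusted p of 0.0327. The genotypes did not overlap in any of these 3 genes. Log2 fold changes were 0.41 for Rab3d, 0.39 for Snap23, 0.27 for Dnm2, 0.14 for Scamp2, 0.14 for Stx4a, 0.07 for Sh3gl1, -0.23 for Synj2 and -0.29 for Bin1, and neither test called these.

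Other genes of the vesicle cycle, among them further SNARE and Rab proteins, transmitter transporters and clathrin adaptors, had a median near that of all genes. Of 83 such genes that were counted, 82 were tested, Cplx4 being too low. Their median log2 fold change was 0.03, edgeR called 0 of them, and DESeq2 called 5 lower and 6 higher, where the background was 5.48% and 6.7% of genes. At an unadjusted p under 0.05, edgeR gave 10 lower and 14 higher, where it was 9.75% and 10.2%. The list holds the widely expressed paralogs as well, so it is not a list of neuronal genes alone.

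The 3 with the smallest p on the lower side were Pacsin1, Prrt2 and Svop. Pacsin1, syndapin, which links endocytosis to actin, was at 38.2, 58.8 and 80.8 CPM in cre+ libraries, against 140.4, 113, 109 and 77.6 CPM in cre- libraries, with a log2 fold change of -0.90 ± 0.27 (SE). Prrt2, a presynaptic protein mutated in paroxysmal movement disorders, was at 22.6, 52.1 and 48.5 CPM in cre+ libraries, against 105, 87.1, 74.9 and 59.6 CPM in cre- libraries, without overlap. Svop, a relative of the SV2 proteins, had a log2 fold change of -0.78 without overlap. Adjusted p in DESeq2 was 0.0191, 0.0173 and 0.041 for these 3 genes, and in edgeR it was 0.138 to 0.164. On the higher side the smallest p belonged to Vamp3, Syngr2 and Stxbp3, the last a Munc18 protein of general secretion, at 49.6, 45.2 and 36.9 CPM in cre+ libraries and 32.5, 30.2, 28.1 and 34.4 CPM in cre- libraries, with a log2 fold change of 0.49 ± 0.13.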

How the data were processed

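RNA was sequenced from isolated mouse brain neurons in 3 cre+ and 4 cre- libraries, grouped by their titles. As the methods of the study and the submitters' processing notes have it, the authors trimmed reads with fastp, aligned them with STAR to GRCm39, filtered alignments with SAMtools and counted genes with StringTie. The sources used here do not give versions or the strand setting. The deposited values used are whole-number counts per gene, with 46382 rows per library. The 49 repeated rows, identical to their first copy, were dropped, and the authors' normalized values were not used. Depth was 68213223 to 94376841 counts per library. Each SE comes from the edgeR model, as the size of the log2 fold change over the square root of its F statistic. SD bars are the spread between libraries. Members of similar sequence, or genes that overlap on the other strand, may share reads.

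Counts were tested with edgeR 4.0.16 in R 4.3.3 (quasi-likelihood F-test, genotype as the single term, TMM factors, filterByExpr), adjusted by Benjamini-Hochberg over 21542 genes, threshold 0.05. DESeq2 1.42.0 gave an adjusted p for 16345 genes, and limma-voom (limma 3.58.1) was run as well. CPM are scaled by TMM factors. RPKM divide the mean CPM by the summed exon length of the gene in GENCODE, on the build of the files. Paralog ratios used log2 CPM with a prior count of 2. The tests were also run on simulated counts with known changes. Genes varied independently there, so that run does not cover the shared movement of the members between libraries.

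The text gives values per library for members past a threshold in either test, members of paralog pairs without overlap, and the highest and lowest log2 fold change, with the rest by counts and ranges. A few further members, such as Syp and Syn3, are given values beside their paralogs or as members without overlap. Of other vesicle genes it names the 3 smallest p in each direction and the paralogs, and some called genes outside this rule are not reported here. Members and lists were chosen with earlier results of these data known. Alternatives were RLE, upper-quartile and library-total scaling, other filters, a replicate block, the vascular covariate, scaling to neuronal markers, another prior count and leaving out each library.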

Additional observations from a re-analysis of the deposited data

Results flagged for a closer look

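Within the 4 cre- libraries, 61 named genes were checked for a library far from the rest, which chance marks in about 1 of 20 genes, or 3.05 here, and 5 had one. Sypl was at 133.5 CPM in cre- replicate 4, with the nearest other cre- library at 99.2 CPM. In cre- replicate 1, Nsf was at 335.6 CPM (nearest other 193.4 CPM), Syt13 at 87.11 CPM (46.13 CPM), Stxbp5 at 64.37 CPM (56.84 CPM) and Syt17 at 21.09 CPM (10.47 CPM).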

How the results depend on the processing

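Under RLE or upper-quartile factors, limma-voom and both other filters on low counts, 0 members passed an adjusted p of 0.05 and 44 had a negative log2 fold change, as with TMM factors, and DESeq2's own run used no filter. Library totals, which moved the median of all genes to -0.16, gave 19 members without overlap, all lower, and Sh3gl1 -0.059. DESeq2 in place of edgeR called 9 members. Leaving out each library in turn, edgeR called 0 members, 42 to 44 had a negative log2 fold change, the member median ran from -0.85 to -0.44, DESeq2 called 0 to 22 members, 9 to 34 members did not overlap (29 without cre+ replicate 3, 34 without cre- replicate 4), and 7 to 13 pairs did not overlap. Over the same runs the log2 fold change ran from -0.40 to 0.097 for Syt17, -0.46 to 0.11 for Cadps2 and -0.014 to 0.12 for Sh3gl1, each turning without cre- replicate 1, and from -0.013 to 0.26 for Stx4a, turning without cre+ replicate 1. A prior count of 0.25 left 7 pairs without overlap. The share of all genes without overlap was not computed under library totals or with a library left out. The counts without overlap in those settings thus have no background beside them. A gap between genotypes is also easier to reach with fewer libraries. The causes of the changes between settings were not tested.

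Scaling to non-synaptic neuronal markers gave 1 called member, 23 negative log2 fold changes, a member median of 0.0016 and 0 members without overlap. It lifts every gene by construction, and turned 21 members positive: Syn3 (0.18), Synpr (0.43), Scamp5 (0.0079), Sv2a (0.098), Sv2c (0.091), Syt6 (0.083), Syt7 (0.011), Syt11 (0.19), Syt17 (0.49), Stx1a (0.15), Vamp1 (0.25), Vamp2 (0.22), Stxbp5 (0.48), Cplx1 (0.077), Nsf (0.20), Napa (0.54), Rab3c (0.14), Synj1 (0.27), Snap91 (0.29), Cadps (0.043) and Cadps2 (0.39). Of the paralogs, Bin1 (0.36) and Synj2 (0.42) turned as well. With the endothelial and mural covariate, which itself differs between genotypes, DESeq2 called 1 member, and over all genes 59 lower and 35 higher. Log2 fold changes turned there for Sv2c (0.30), Syt2 (0.35), Syt11 (0.10), Bin1 (0.24), Stx4a (-0.35), Dnm2 (-0.14) and Sh3gl1 (-0.049).

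Replicate numbers are shared by the genotypes, and the labels do not say whether they pair the mice. Deviations of same-numbered libraries correlated at -0.0267, -0.00357 and 0.0876, and those of differently numbered libraries at -0.111 to 0.16. These values overlap, so they cannot decide whether the numbers mark pairs. With a replicate block, edgeR called 0 members, with a median of -0.81. DESeq2 called 12 members, 11 lower and 1 higher, where over all genes it called 778 lower and 765 higher. Cre- replicate 4 has no cre+ library of its number, so in this fit it does not enter the genotype difference.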
